A study of Mus musculus with 6 samples.

Results

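Caveolae are flask-shaped pits of the plasma membrane. The RNA of 8 genes that build them was followed in endothelial cells (ECs) with and without vascular endothelial cadherin (VEC, encoded by *Cdh5*), the adhesion protein of endothelial junctions. The 8 genes, of 24080 in the deposited table, were taken by symbol: *Cav1* and *Cav2* (caveolins), *Cavin1*, *Cavin2* and *Cavin3* (cavins), *Ehd2* and *Pacsin2* (proteins that bend and hold the membrane at the caveolar neck) and *Plvap* (the protein of the diaphragm that spans the neck). All 8 were found and all passed the filter on low values described below. The VEC-null cells were ECs derived from mouse embryonic stem cells whose *Cdh5* gene carries a null mutation on both alleles. The VEC-positive cells were the same VEC-null cells after retroviral transfer of wild-type VEC, so all 6 libraries carry the null alleles. Each group had 3 libraries of total RNA. The study names the replicates of each group biological ones, and the labels do not say whether they were separate cultures or clones. All p-values measure the spread between these libraries. The presence of VEC and the viral transfer itself cannot be told apart in this design, and in bulk RNA fewer cells of a type and less RNA per cell cannot be told apart.

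Caveolin 1 inserts into the inner leaflet of the membrane as an oligomer, caveolin 2 joins it in mixed oligomers, and cavin 1 binds from the cytoplasm as the coat that turns a caveolin patch into a pit. Cavin 2 and cavin 3 associate with cavin 1 and modify the coat, EHD2 is an ATPase that rings the neck and keeps the pit at the surface, and pacsin 2 (syndapin 2) is an F-BAR protein that bends the neck. ECs are among the cells richest in caveolae, which buffer membrane tension and take part in transcytosis and in the control of nitric oxide synthesis. PLVAP forms the diaphragms of endothelial caveolae and fenestrae.

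In the libraries labelled VEC-positive, both caveolins, *Cavin1*, *Cavin2*, *Pacsin2* and *Plvap* were higher than in the libraries labelled VEC-null, and none of the 8 genes was lower. The rise was 2.88-fold for *Cav2*, 2.55-fold for *Plvap*, 2.37-fold for *Cav1* and 1.46-fold for *Cavin1*. *Ehd2* (1.22-fold) and *Cavin3* (1.11-fold) did not pass the test. The interval of the rise of *Cav1* lay above that of *Cavin1*, and fewer *Cavin1*, *Cavin3* and *Ehd2* reads were counted per *Cav1* read in every VEC-positive library than in any VEC-null library.

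Before these values are given, the promoters of the caveolins and of the 2 cavins that rose are shown. These 4 genes were picked for printing by their rise, and a part of their promoters in it was not tested. *Cav2* and *Cav1* lie next to each other on the plus strand of chromosome 6, and 17.2 kb separate the end of *Cav2* from the start of *Cav1* (GENCODE M21, GRCm38, the mm10 build). The windows are the 250 bases before the start that RefSeq annotates (GRCm38.p6; that of *Cavin1* lies just inside the GENCODE gene), taken at the start nearest to the GENCODE gene's own where RefSeq has more than 1 (*Cav1*, *Cavin1* and *Pacsin2*), 5′ to 3′ on the strand of the gene, with matches to the searched motifs in capitals. They lie at chr6:17306085-17306334 for *Cav1*, chr6:17280935-17281184 for *Cav2*, chr11:100970618-100970867 (minus strand) for *Cavin1* and chr1:51288876-51289125 for *Cavin2*.
Cav1: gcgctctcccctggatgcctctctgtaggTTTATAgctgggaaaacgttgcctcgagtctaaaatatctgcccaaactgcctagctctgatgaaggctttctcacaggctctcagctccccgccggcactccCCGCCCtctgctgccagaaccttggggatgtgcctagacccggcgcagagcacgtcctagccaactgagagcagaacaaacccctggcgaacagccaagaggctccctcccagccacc
Cav2: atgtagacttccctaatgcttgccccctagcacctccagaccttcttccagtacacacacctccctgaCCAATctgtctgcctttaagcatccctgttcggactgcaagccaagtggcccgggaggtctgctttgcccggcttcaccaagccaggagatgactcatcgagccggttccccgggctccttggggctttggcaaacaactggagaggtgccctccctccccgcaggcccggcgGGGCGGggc
Cavin1: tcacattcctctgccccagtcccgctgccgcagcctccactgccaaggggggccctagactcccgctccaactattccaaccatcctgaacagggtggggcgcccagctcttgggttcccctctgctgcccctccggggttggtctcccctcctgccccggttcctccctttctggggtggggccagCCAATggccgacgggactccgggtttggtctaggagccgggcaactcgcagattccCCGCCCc
Cavin2: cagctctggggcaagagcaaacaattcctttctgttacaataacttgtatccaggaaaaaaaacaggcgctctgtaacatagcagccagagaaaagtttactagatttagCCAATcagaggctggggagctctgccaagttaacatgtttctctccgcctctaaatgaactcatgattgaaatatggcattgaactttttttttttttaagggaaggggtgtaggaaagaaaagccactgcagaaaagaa

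Promoter windows were matched for 6 of the 8 members, and those of *Cavin3* and *Plvap* were not. Of the bases in the printed windows, 59.6% (*Cav1*), 62.0% (*Cav2*) and 67.6% (*Cavin1*) were G or C, with 10, 10 and 12 CpG dinucleotides, against a median of 52.4% and 6 CpG over all 32851 windows of this length. The *Cavin2* window was the AT-rich one, with 40.4% G or C and 2 CpG. The motifs were searched on both strands, and none overlaps another. The SP/KLF box GGGCGG occurs in 32.7% of all windows and was found in those of *Cav1* (as CCGCCC), *Cav2*, *Cavin1*, *Ehd2* and *Pacsin2*, but not in that of *Cavin2*. The CCAAT box is in 33.8% of all windows and was found in those of *Cav2*, *Cavin1*, *Cavin2*, *Ehd2* and *Pacsin2*. The *Cav1* window held a TATA box match on the minus strand (TTTATA, a string with a match to TATAAA in 12.4% of windows). For FOXO, TCF/LEF and ETS factors a fixed string each was searched: GTAAACA (3.17% of windows), CTTTGAT (3.21%) and CCGGAAG (6.91%). None of these strings was in any of the 10 windows annotated for the 6 members. Other forms of these sites were not searched, so this says only that these letters are not in these bases. A match is a string of letters and not a measured binding site.

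Levels are normalised read counts: the counts of each gene divided by 1 size factor per library. The libraries held 6036155 to 14136376 reads. Mitochondrial transcripts took 9.62% to 14.9% of the reads of VEC-null libraries and 17.97% to 24.18% of those of VEC-positive libraries. VEC-null replicate 3 stood apart: its read counts differed from VEC-null replicates 1 and 2 by 49.6 and 50.2 in chi-square over genes, divided by their number, where replicates 1 and 2 differed by 6.59 and pairs of VEC-positive libraries by 11.8 to 17.9. The targeted gene ran against the labels: *Cdh5* (chr8:104101625-104144511) was at 1334, 1439 and 1689 under the VEC-null label and at 794.3, 739.4 and 749.7 under the VEC-positive label (log2 fold change -0.96, SE 0.098, adjusted p = 0.0001821 in limma). The sources used here do not give which exons the null mutation removes, so the gene-level count does not check the loss, and every direction below follows the labels. *Cldn5*, the tight junction claudin gene that the study followed, was at 9.18, 5.513 and 4.433 under the VEC-null label and at 429.2, 512.4 and 434.1 under the VEC-positive label, with 6.01 as its log2 fold change (adjusted p = 2.14e-06 in limma). Genes had to reach a value of 10 in 3 or more libraries, which 14032 did. They were compared in limma on log2(value + 1) by a two-sided test, p-values were adjusted over all of them by the method of Benjamini and Hochberg, and the threshold was 0.05. Fold changes are VEC-positive over VEC-null on that scale.

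Of the 8 members 6 passed as higher, 0 as lower, and 2 did not pass. Over all tested genes 37.3% passed, 20.9% as higher and 16.4% as lower (37.9% in edgeR and 34.7% in DESeq2, by which 6 and 7 members passed, all higher). The calls were 2927 genes higher and 2304 lower, a split that became 1566 and 4960 with equal totals per library (5 members higher, 0 lower) and 2051 and 3166 with equal totals without mitochondrial transcripts (6 higher, 0 lower). At least 2-fold higher as deposited were 4 members (*Cav1*, *Cav2*, *Pacsin2* and *Plvap*), against 6.88% of tested genes. No member was 2-fold lower, against 6.99%. *Pacsin2* only just met this cut, with a log2 fold change of 1.0001, and fell short of it in edgeR and DESeq2. With equal totals per library *Pacsin2* (0.689) and *Cav1* (0.9345) fell short of it, while *Cav2* (1.2165) and *Plvap* (1.0411) still met it. The members' median log2 fold change was 0.91 beside a median of -0.01 for all tested genes, whose 5th and 95th percentiles were -1.34 and 1.31. No member was lower at an unadjusted p under 0.05 either, by limma, edgeR or DESeq2, with 7 members higher at that p by each tool. The groups did not overlap for 7 members, all of them higher in VEC-positive cells, where 27.2% of tested genes had groups that did not overlap in that direction. All members were well expressed: their mean levels exceeded those of 85.4% (*Cavin3*) to 99.5% (*Cavin1*) of the tested genes, whose median was 157.1.

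**Figure D1:**
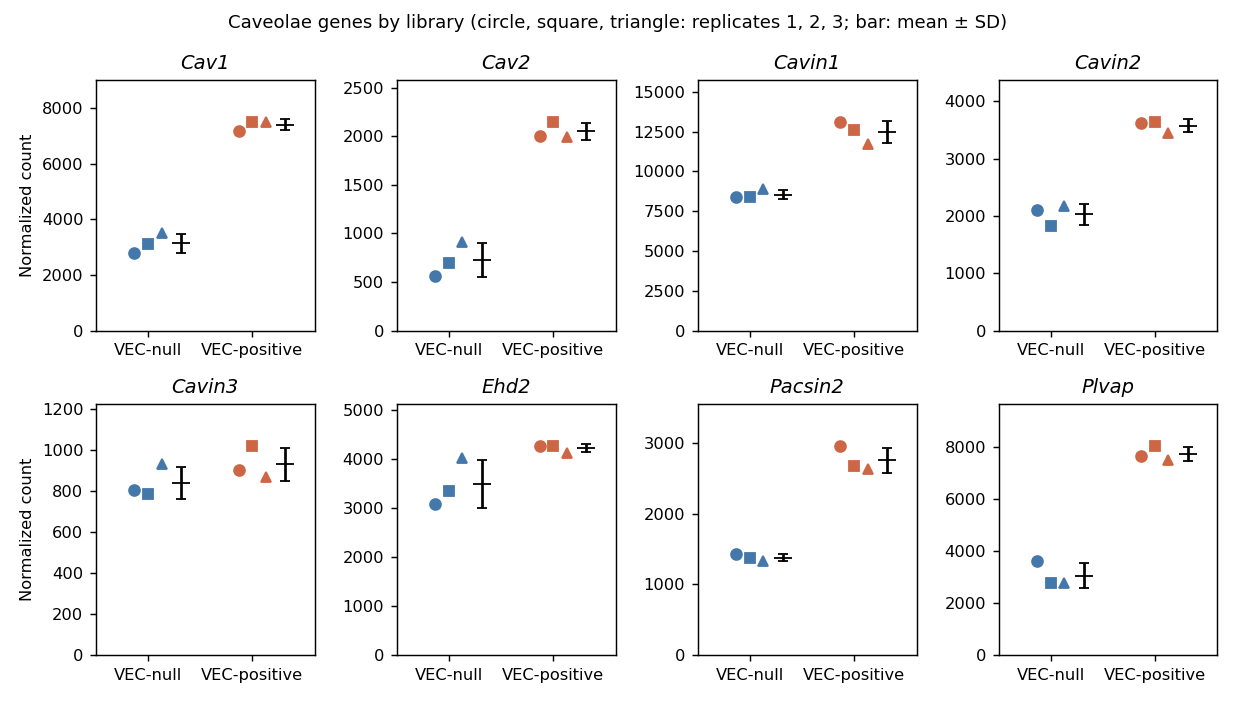
Normalised read count (vertical axes, linear from 0, each gene with its own scale) of each of the 8 caveolae genes in the 3 libraries labelled VEC-null and the 3 labelled VEC-positive. Circles, squares and triangles are replicates 1, 2 and 3, and the black mark beside them is the mean ± SD. The groups are apart for 7 genes and overlap for *Cavin3*, and the VEC-null libraries of *Cav2* run from 564.6 to 909.7.

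The caveolins are the membrane proteins of the pit. *Cav1* (ENSMUSG00000007655, chr6:17306335-17341452), without which caveolae do not form, was at 2795, 3110 and 3490 in the VEC-null libraries and at 7181, 7510 and 7505 in the VEC-positive libraries. The lowest VEC-positive library stood above every VEC-null library, and the means were 3131.7 ± 347.6 and 7398.6 ± 188.1 (SD, n = 3 each). The log2 fold change was 1.25 (SE 0.093, 95% interval 1.03 to 1.46, adjusted p = 3.977e-05 in limma).

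*Cav2* (ENSMUSG00000000058, chr6:17281185-17289115), the partner that needs caveolin 1 to reach the surface, was at 564.6, 695.4 and 909.7 in VEC-null and at 2005, 2150 and 1991 in VEC-positive cells. Its VEC-null libraries had an SD of 24.1% of their mean, the highest such share among the 8 members, with VEC-null replicate 3 the highest, yet all lay below the VEC-positive ones. The log2 fold change, 1.53, was the largest of the 8 (SE 0.156, interval 1.17 to 1.89, adjusted p = 0.0001833 in limma).

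Among the cavins, *Cavin1* (ENSMUSG00000004044, chr11:100956733-100970887), the coat protein required for caveolae, was the most abundant member by normalised count. It was at 8377, 8365 and 8902 in VEC-null and at 13132, 12582 and 11748 in VEC-positive libraries. Its groups were apart, with a log2 fold change of 0.55 (SE 0.082, interval 0.36 to 0.73, adjusted p = 0.001314 in limma). The call was lost when libraries were scaled to equal totals (0.23, adjusted p = 0.05376 in limma), a scaling that lowered the median of all tested genes to -0.32.

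*Cavin2* (ENSMUSG00000045954, chr1:51289126-51302960), whose product recruits cavin 1 and curves the membrane, was at 2099, 1820 and 2169 in VEC-null and at 3625, 3646 and 3447 in VEC-positive libraries. The groups were far apart relative to their spread, and the rise of 0.82 in log2 (SE 0.085, interval 0.62 to 1.01, adjusted p = 0.0001922 in limma) lay between those of *Cavin1* and *Cav1*. *Cavin3* (ENSMUSG00000037060, chr7:105480083-105482300), which links caveolae to signalling proteins, was at 804.8, 786.7 and 931.8 against 901.6, 1021 and 868.3. Here the groups overlapped. The log2 fold change was 0.15 (SE 0.098, interval -0.08 to 0.37, adjusted p = 0.2823 in limma), an interval whose upper end lies below the lower ends for *Cav1*, *Cav2*, *Cavin2*, *Pacsin2* and *Plvap*. Of the exon bases of *Cavin3* 22.5% (374 bases) are shared with *Gm45667*, an annotated transcript on the opposite strand. Its reads cannot be told apart from those of *Cavin3* if counting ignored strand, and the sources do not say how strand was treated. No other member shared exon bases with another gene.

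The genes of the neck differed from each other. *Ehd2* (ENSMUSG00000074364, chr7:15946958-15967567) was at 3091, 3347 and 4026 in VEC-null and at 4268, 4260 and 4128 in VEC-positive libraries. The VEC-positive libraries were all higher, but VEC-null replicate 3 came close to them, and the log2 fold change of 0.28 (SE 0.102, interval 0.05 to 0.52) did not pass (adjusted p = 0.06203 in limma). *Pacsin2* (ENSMUSG00000016664, chr15:83375607-83464606) was at 1423, 1372 and 1332 against 2957, 2677 and 2631. Its VEC-null libraries had an SD of 3.33% of their mean, the lowest such share among the 8 members (1375.5 ± 45.76, SD, n = 3). The level was 2-fold higher in VEC-positive cells (SE of the log2 fold change 0.075, interval 0.83 to 1.17, adjusted p = 3.977e-05 in limma).

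*Plvap* (ENSMUSG00000034845, chr8:71497765-71511752), the diaphragm gene and an endothelial marker in its own right, was at 3596, 2759 and 2772 in VEC-null and at 7637, 8024 and 7475 in VEC-positive libraries. VEC-null replicate 1 was the highest of its group here, unlike for the caveolins, and remained far below every VEC-positive library. The log2 fold change was 1.35 (SE 0.112, interval 1.09 to 1.61, adjusted p = 6.446e-05 in limma). *Plvap* overlaps *Gtpbp3* on the opposite strand without shared exon bases, and *Gtpbp3* did not pass (0.17, adjusted p = 0.4238 in limma).

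**Figure D2:**
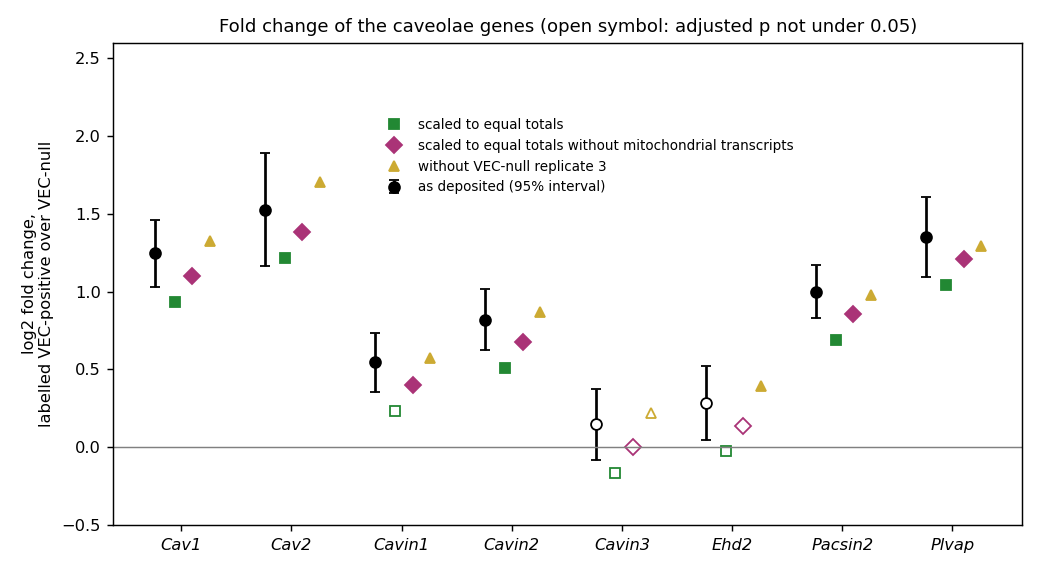
Log2 fold change of each caveolae gene, labelled VEC-positive over VEC-null (vertical axis): circles with 95% intervals are the values as deposited, squares equal totals per library, diamonds equal totals without mitochondrial transcripts, and triangles the fit without VEC-null replicate 3; open symbols did not pass. The intervals of *Cav2*, *Plvap*, *Cav1*, *Pacsin2*, *Cavin2* and *Cavin1* lie above 0 and their genes passed, while that of *Cavin3* spans 0 and that of *Ehd2* (0.05 to 0.52) lies just above 0 without passing after adjustment.

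VEC-null replicate 3, the library that stood apart, was the highest of its group for 6 members (*Cav1*, *Cav2*, *Cavin1*, *Cavin2*, *Cavin3* and *Ehd2*). Without it the log2 fold changes were 1.33 for *Cav1*, 1.71 for *Cav2*, 0.58 for *Cavin1*, 0.87 for *Cavin2*, 0.98 for *Pacsin2* and 1.29 for *Plvap*, each still past the threshold. *Ehd2* passed without it (0.39, adjusted p = 0.001091 in limma) and *Cavin3* came to 0.22 (adjusted p = 0.05095), so that 7 members were higher. *Ehd2* also passed in DESeq2 on the recovered reads (0.26, adjusted p = 0.0435). With equal totals per library, *Cavin3* (-0.17, adjusted p = 0.1541 in limma) and *Ehd2* (-0.03, adjusted p = 0.8326) changed sign without passing. *Cav1*, *Cav2*, *Cavin2*, *Pacsin2* and *Plvap* passed under all 18 alternatives.

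Because all members of a pit are read in the same libraries, each was also set against *Cav1* within its library, which cancels the scaling between libraries. The number of *Cavin1* reads per *Cav1* read was 3, 2.69 and 2.55 in VEC-null and 1.83, 1.68 and 1.57 in VEC-positive libraries. *Ehd2* stood at 1.11, 1.08 and 1.15 per *Cav1* read and then at 0.594, 0.567 and 0.55. *Cavin3* stood at 0.288, 0.253 and 0.267 and then at 0.126, 0.136 and 0.116. For these 3 genes the groups were widely apart, with log2 differences of -0.70 (*Cavin1*), -0.96 (*Ehd2*) and -1.10 (*Cavin3*). *Cavin2* per *Cav1* was lower by a smaller step, from a group mean of 0.649 to 0.483 (log2 difference -0.43). *Cav2* per *Cav1* was higher, at 0.202, 0.224 and 0.261 in VEC-null and 0.279, 0.286 and 0.265 in VEC-positive libraries (log2 difference 0.28), but VEC-null replicate 3 and VEC-positive replicate 3 nearly met. For these 5 ratios the groups did not overlap and the exact two-sided permutation p was 0.1 (0.14 adjusted over the 7 ratios), which is the smallest that 3 against 3 libraries allow, so none could pass 0.05. *Pacsin2* per *Cav1* (log2 difference -0.25, exact p = 0.2) and *Plvap* per *Cav1* (0.11, exact p = 0.7) overlapped between groups.

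**Figure D3:**
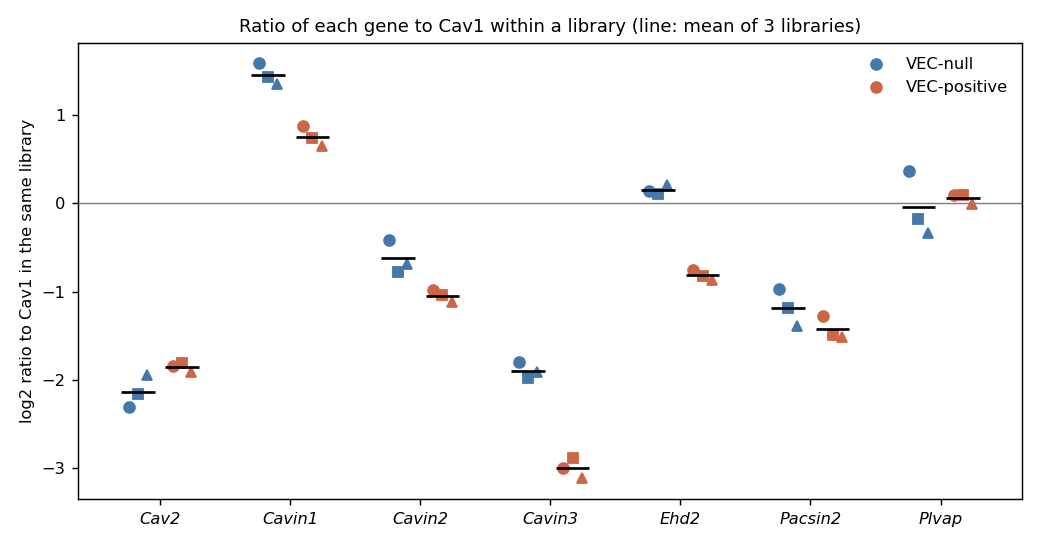
Log2 ratio of each other caveolae gene to *Cav1* within each library (vertical axis), for the 3 VEC-null (blue) and 3 VEC-positive (orange) libraries; points are libraries and lines are group means. *Cavin1*, *Cavin2*, *Cavin3* and *Ehd2* sit lower relative to *Cav1* in every VEC-positive library, *Cav2* sits higher, and *Pacsin2* and *Plvap* overlap.

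Levels of different genes were compared per kilobase of annotated exon. In VEC-null cells the order of the levels per kilobase was *Cavin1* (2383 ± 85.5, SD, n = 3), *Plvap* (1531 ± 241), *Cav1* (909.3 ± 101), *Ehd2* (681.4 ± 94.4), *Cavin2* (664.2 ± 60.4), *Cavin3* (506.1 ± 47.6), *Pacsin2* (280.3 ± 9.32) and *Cav2* (216.9 ± 52.2). The ranges of *Ehd2* and *Cavin2* overlapped, as did those of *Pacsin2* and *Cav2*, so neither pair of neighbours is ordered beyond its spread. In VEC-positive cells *Plvap* came first (3881 ± 142), followed by *Cavin1* (3481 ± 194), *Cav1* (2148 ± 54.6), *Cavin2* (1170 ± 35.7), *Ehd2* (824.1 ± 15.3), *Cav2* (614.3 ± 26.4), *Pacsin2* (561.3 ± 35.9) and *Cavin3* (559.7 ± 48.3). *Cav2* thus moved from the last place to the sixth and *Cavin3* from the sixth to the last, but on this scale *Pacsin2* overlapped with both in VEC-positive cells. With the length of the longest transcript in place of all exons the ranks were kept, but other neighbours overlapped: *Plvap* and *Cavin1* did so in VEC-positive cells, while *Pacsin2* no longer overlapped with *Cav2* in VEC-null cells or with *Cavin3* in VEC-positive cells.

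**Figure D4:**
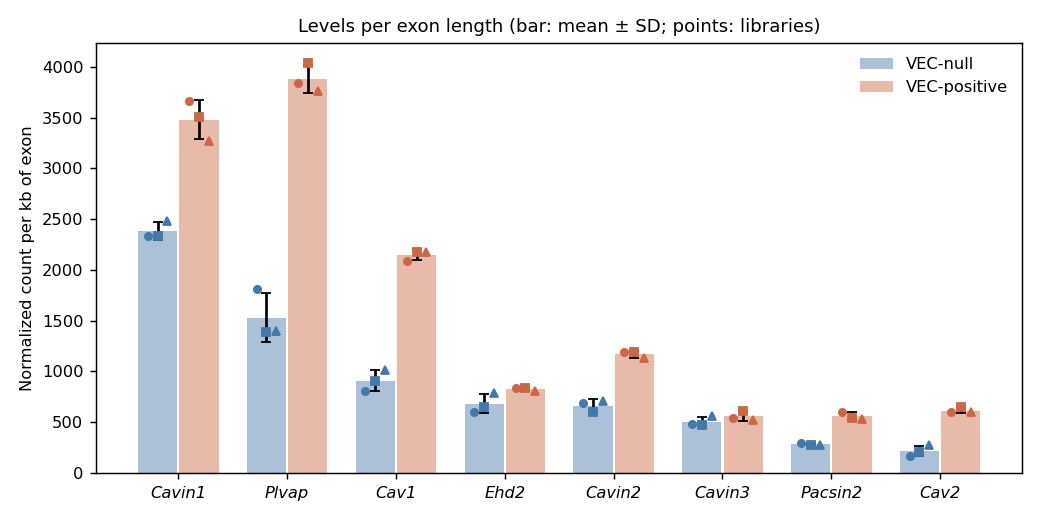
Normalised read count per kilobase of exon (vertical axis, linear from 0) of the 8 caveolae genes, ordered by their VEC-null mean, in VEC-null (blue) and VEC-positive (orange) libraries; bars are means ± SD and points are libraries. *Plvap* lies below *Cavin1* in VEC-null and above it in VEC-positive cells.

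The genes beside the members were read to see whether whole neighbourhoods moved. Of the 14 nearest tested protein-coding neighbours that are no members, 8 were higher, 2 lower and 4 did not pass, with a median log2 fold change of 0.40. With equal totals per library 2 were higher (*Stat3* and *Ttll1*), 3 lower (*Tes*, *Nabp1* and *Bst2*) and 9 did not pass. At the caveolin locus, *Tes* (175 kb below *Cav2*), which encodes a focal adhesion protein, was at 1451, 1395 and 1324 in VEC-null and at 771, 822.2 and 780.3 in VEC-positive libraries (-0.81, adjusted p = 8.973e-05 in limma). It thus moved in the other direction than the caveolins. *Met*, the hepatocyte growth factor receptor gene 122 kb above *Cav1*, did not pass (0.18, adjusted p = 0.4178 in limma).

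Around the other members, *Stat3*, the transcription factor gene next to *Cavin1*, rose by less than 2-fold (0.54, adjusted p = 0.0004886 in limma), and *Atp6v0a1* on the other side gave 0.34 (adjusted p = 0.03303), a call that was lost without any 1 of 5 of the 6 libraries. Beside *Cavin2*, *Nabp1* was lower (-0.93, adjusted p = 0.003822) and *Slc39a10*, 4400 kb away, was higher (0.50). Beside *Cavin3*, *Fam160a2* (0.63) and the acid sphingomyelinase gene *Smpd1* (0.66) were higher although *Cavin3* did not pass. Beside *Ehd2*, *Nop53* (0.884 kb away) was higher (0.46) and *Bicra* did not pass (0.29, adjusted p = 0.1034). Both neighbours of *Pacsin2*, *Arfgap3* (0.45) and *Ttll1* (0.80), were higher, and *Bst2* beside *Plvap* did not pass (-0.11, adjusted p = 0.4869).

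The 3 genes whose log2 levels followed *Cav1* most closely over the 6 libraries were *Ttc17* (Pearson r = 0.9998), *Endod1* (0.9996) and the tetraspanin gene *Cd9* (0.9993). *Cd9* was at 601.3, 689.9 and 837.8 in VEC-null and at 2158, 2379 and 2236 in VEC-positive libraries, with VEC-null replicate 3 again the highest of its group. For *Plvap* they were *Il13ra2* (0.9984), *Rnf167* (0.998) and *Dusp8* (0.9977), each with VEC-null replicate 1 highest among the VEC-null libraries. The 6 points share 2 groups and a scaling, so high values are common: of 7814 genes compared, 283 had an r above 0.99 with *Cav1* and 89 with *Plvap*.

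Of 7 paralogs of the members 4 were tested, of which 3 were higher, 0 lower and 1 did not pass (median log2 fold change 0.75). By edgeR, DESeq2 and limma alike, no paralog was lower at an unadjusted p under 0.05. *Ehd1*, *Ehd3* and *Ehd4* encode EHD ATPases of endosomal recycling. *Ehd1* was at 621.2, 633.9 and 667.6 in VEC-null and at 1297, 1284 and 1248 in VEC-positive libraries (0.99, adjusted p = 2.823e-05 in limma). *Ehd3* rose by 1.07 and *Ehd4* by 0.50 on the log2 scale, and the latter lost its call with equal totals (0.19, adjusted p = 0.1387). *Pacsin3* did not pass (0.04, adjusted p = 0.8935 in limma). *Pacsin1* had 2 reads in all VEC-null libraries and 0 in all VEC-positive libraries and was not tested. *Cav3* and *Cavin4*, the muscle forms, had no values under these symbols and were not tested.

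Of 16 partners and regulators of caveolae 15 were tested, and they moved in both directions, with 4 higher, 6 lower and 5 that did not pass (median 0.06). *Acvrl1*, the ALK1 receptor gene of the BMP9 response, was at 168.3, 152.8 and 148.9 in VEC-null and at 1354, 1345 and 1196 in VEC-positive libraries (3.04, adjusted p = 5.412e-07 in limma). *Cd36*, the fatty acid receptor found in caveolae, ran the other way, at 374.9, 352 and 446 against 33.82, 41.89 and 41.96 (-3.28, adjusted p = 3.298e-06). *Flna*, whose product filamin A anchors caveolin 1 to actin, was lower (-0.94, adjusted p = 0.0001861), and the kinase gene *Prkcd* was lower too (-1.43, adjusted p = 0.0001079). The caveolin-bound synthase gene *Nos3* (0.06, adjusted p = 0.5541) and the kinase gene *Fyn* (-0.08, adjusted p = 0.4409) did not pass, though *Fyn* passed as lower with equal totals (-0.40, adjusted p = 0.005631) and with equal totals without mitochondrial transcripts (-0.23, adjusted p = 0.0415).

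The remaining partners that passed are named after their values were seen. The dynamin gene *Dnm2* (0.80), the BMP receptor gene *Bmpr2* (0.70) and the kinase gene *Abl1* (0.30, but -0.0128 with equal totals) were higher. *Src*, the kinase that phosphorylates caveolin 1, was at 280, 240.2 and 275.7 in VEC-null and at 155.1, 133.5 and 137.2 in VEC-positive libraries (-0.90, adjusted p = 0.0006682 in limma). The insulin receptor gene *Insr* (-0.51) and the HDL receptor gene *Scarb1* (-0.30) were lower. The *Scarb1* call (adjusted p = 0.03546 in limma) was lost in DESeq2 (adjusted p = 0.05192), without a filter, without the trend and without any 1 of 4 of the 6 libraries, and that of *Abl1* without any 1 of 3. *Mfsd2a*, the lipid transporter gene known for holding down caveolae in brain endothelium, had 1 read in all VEC-null and 12 reads in all VEC-positive libraries, a ratio of 11.7 (95% interval for counting error 1.73 to 501), and was not tested.

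Flotillins build another, caveolin-free kind of membrane domain. Of 6 flotillin and raft scaffold genes, 3 were higher, 0 lower (also at an unadjusted p under 0.05 by limma, edgeR and DESeq2) and 3 did not pass, with a median of 0.39. *Flot1* was at 117.8, 111.8 and 107.3 in VEC-null and at 190.1, 213.3 and 182.4 in VEC-positive libraries (0.79, adjusted p = 0.001406 in limma). *Stom* (0.59, adjusted p = 0.01724) and *Flot2* (0.50, adjusted p = 0.006228) were higher too, and lost their calls with equal totals (0.28 and 0.19), a scaling under which 1 of the 6 genes was higher and 2 lower. The *Stom* call was also lost with equal totals without mitochondrial transcripts (0.44, adjusted p = 0.06367 in limma). It was lost as well without VEC-null replicate 2, VEC-positive replicate 1 or VEC-positive replicate 2. *Erlin1* (0.28, adjusted p = 0.06962) and *Erlin2* (-0.13, adjusted p = 0.3805) did not pass, but without VEC-null replicate 3 *Erlin1* did (0.33, adjusted p = 0.01918).

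Clathrin-coated pits are the other main route into the cell. Of 28 genes of that route 27 were tested, and 15 were higher, 1 lower and 11 did not pass. All tested genes had 20.9% higher and 16.4% lower. The clathrin median was 0.38, below the 0.91 of the caveolae genes and above the -0.01 of all tested genes. *Dnm1*, the dynamin gene best known from neurons, was at 9.18, 9.45 and 23.05 in VEC-null and at 190.1, 188 and 231.6 in VEC-positive libraries (3.89, adjusted p = 8.202e-05 in limma). The adaptor gene *Dab2* was at 3798, 3341 and 4438 against 8428, 8633 and 8123 (1.13, adjusted p = 0.0001273). The clathrin light chain gene *Cltb* and the endophilin gene *Sh3gl1* each gave 0.78. The gene that fell was *Bin1* (-0.73, adjusted p = 0.0002701), named after its value was seen. The clathrin heavy chain gene *Cltc* (0.14, adjusted p = 0.3242) and *Itsn2* (0.09, adjusted p = 0.5197) did not pass, although *Cltc* did without VEC-null replicate 3 (0.26, adjusted p = 0.01321). *Fcho1* had 4 reads in all VEC-null and 4 in all VEC-positive libraries. With equal totals 8 clathrin genes were higher and 4 lower.

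**Figure D5:**
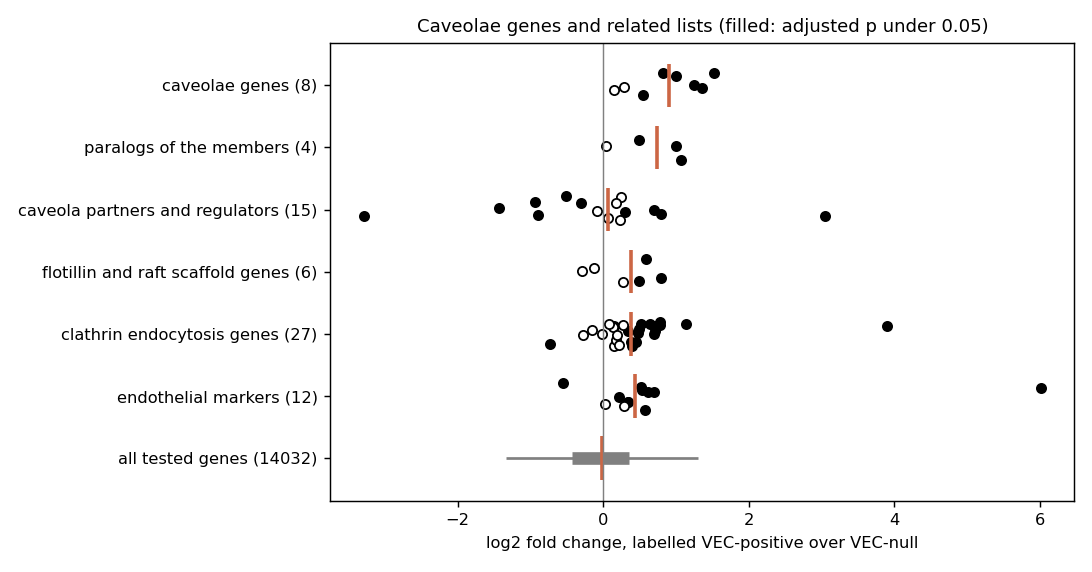
Log2 fold change (horizontal axis, labelled VEC-positive over VEC-null) of each tested gene of the caveolae genes, their paralogs, caveola partners, flotillin and raft scaffold genes, clathrin genes and endothelial markers; points are genes, filled where they passed, and the orange bar is the list's median. The lowest line gives all tested genes, thick from the 25th to the 75th percentile and thin from the 5th to the 95th. The caveolae genes lie at or above 0.15, while the partners spread from -3.28 to 3.04.

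The defining genes of endothelium were checked beside these values. Of 13 endothelial markers 12 were tested and 9 were higher, 1 lower and 2 did not pass. With equal totals per library 6 of these markers were higher and 2 lower, and without mitochondrial transcripts in the totals 6 were higher and 1 lower. The summed level of the markers, as deposited, was 47450 to 49680 in VEC-null and 67430 to 69260 in VEC-positive libraries. At that scaling it moved in the direction of the caveolae genes, and its part in their rise was not tested. *Pecam1* (11393 to 12601 against 14833 to 15857) and *Kdr* (12302 to 12920 against 18149 to 19433) were high in all 6 libraries. Beside *Cldn5*, given above, *Erg* (0.70), *Tek* (0.62) and *Kdr* (0.58) were higher as well, *Esam* (0.02) and *Egfl7* (0.28) did not pass, and *Robo4*, named after its value was seen, was lower (-0.55).

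Markers of other cell types, some of them known for caveolae, were mostly low, with exceptions given below. Of 11 mural cell markers 5 were tested, with 2 higher, 1 lower and 2 that did not pass, and they summed to 123.2 to 134.6 in VEC-null and 161 to 195.3 in VEC-positive libraries. *Pdgfrb*, the pericyte receptor gene, rose from 1.53, 0 and 1.773 to 95.64, 117.9 and 102.5 (5.79, adjusted p = 4.492e-05 in limma), and *Notch3* (2.95) and *Abcc9* (-3.94), named after their values were seen, went opposite ways. The smooth muscle genes *Acta2* (-1.06) and *Myh11* (1.48) did not pass. Adipocyte markers summed to at most 9.331 in any library and none was tested, and fibroblast markers summed to 69.15 to 169.8 against 128.6 to 173.5, with 0 of 2 tested past the threshold (*Pdgfra* 0.50, *Col1a2* 0.27). Striated muscle markers summed to 61.18 to 122.4 against 64.56 to 74.65, with 0 of 2 tested past the threshold (*Acta1* -1.61, *Tnnt2* 0.23). Markers of pluripotent cells summed to at most 12.91. Blood cell markers summed to 135.7 to 443.7 against 204.6 to 275.3, and 1 of 3 tested passed (*Itga2b*, higher by 1.64). The largest part of that sum came from the myeloid integrin gene *Itgam*, at 405.5, 389 and 83.34 in VEC-null and 155.1, 99.36 and 145.3 in VEC-positive libraries. It did not pass (-0.85, adjusted p = 0.2694 in limma), and without VEC-null replicate 3, its lowest library, it was lower (-1.59, adjusted p = 0.0001301). *Csf1r* did not pass (0.80).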

How the data were processed

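Total RNA of 3 VEC-null and 3 VEC-positive libraries, grouped by their titles, was sequenced with a stranded total RNA kit. The build in the submitters' processing notes is mm10, and the tools they list are DESeq2 1.14, TopHat2 2.1.1 and Trim Galore. The counting program and its annotation were not given in the sources used here. Signal values deposited by the authors are gene counts that had been divided by a size factor for each library. In every library all values were whole multiples of 1 step (tolerance 0.01 read), which gave 6036155 to 14136376 reads per library (median 11128657). Counting intervals cover counting error only.

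GENCODE M21 gave symbols for 23908 genes. A value of 10 or more in 3 or more libraries was required, and the 14032 genes that met it were fitted in limma 3.58.1 (R 4.3.3) with a mean-variance trend on log2 values with a pseudocount of 1, and the code was tested on simulated data. Alternatives were pseudocounts of 0.5 and 10, no filter, a filter of 50, equal totals with and without mitochondrial transcripts, TMM, no trend, robust moderation, a replicate block, each library left out, and, on the recovered reads, DESeq2 1.42.0 and edgeR 4.0.16. The members and the lists were chosen with earlier results of these data known. Of each list, the 4 genes or fewer with the largest changes past the threshold (mean over 50 or equal) and the 2 or fewer of highest mean that did not pass were named, with every paralog, the nearest tested neighbours, and the 3 genes most like *Cav1* and *Plvap* (mean of at least 100).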

Additional observations from a re-analysis of the deposited data

How the results depend on the processing

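Equal totals per library was the scaling with the largest effect: it lowered every log2 fold change by about the same step, taking the median of all 14032 tested genes from -0.01 to -0.32 and that of the caveolae genes from 0.91 to 0.60. *Cavin1* then gave 0.23 without passing, and *Cavin3* (-0.17), *Ehd2* (-0.028), *Met* (-0.13), *Bicra* (-0.025), *Gtpbp3* (-0.14), *Abl1* (-0.0128), *Pacsin3* (-0.27), *Nos3* (-0.25), *Erlin1* (-0.0351), *Cltc* (-0.17) and *Itsn2* (-0.23) changed sign. Of the neighbours, *Atp6v0a1* (0.0252), *Slc39a10* (0.18), *Fam160a2* (0.32), *Smpd1* (0.35), *Nop53* (0.15) and *Arfgap3* (0.14) no longer passed and *Bst2* (-0.42) did, as did *Fyn* (-0.40) and *Erlin2* (-0.44) of the lists. Flotillin and raft genes counted 1 higher and 2 lower, clathrin genes 8 and 4, and endothelial markers 6 and 2. With equal totals without mitochondrial transcripts *Pacsin3* (-0.1081), *Nos3* (-0.0822), *Cltc* (-0.0009) and *Itsn2* (-0.0601) changed sign too. *Pacsin3* did so as well without VEC-positive replicate 1 (-0.0657), VEC-null replicate 1 (-0.0601) or VEC-null replicate 3 (-0.0125), in edgeR (-0.0061) and DESeq2 (-0.0039), and *Ehd2* passed in DESeq2 (0.26). Lower clathrin genes numbered 2 with a filter of 50, TMM, edgeR or DESeq2. With a filter of 50, 1 mural marker was higher, and without a filter 2 mural markers were lower, 2 fibroblast markers higher and 1 adipocyte marker higher.

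When 1 library was left out, the log2 fold changes ran from 1.17 to 1.33 (*Cav1*), 1.36 to 1.71 (*Cav2*), 0.51 to 0.59 (*Cavin1*), 0.74 to 0.87 (*Cavin2*), 0.08 to 0.22 (*Cavin3*), 0.20 to 0.39 (*Ehd2*), 0.95 to 1.03 (*Pacsin2*) and 1.29 to 1.48 (*Plvap*). Ranges for neighbours whose call changed were 0.0558 to 0.35 (*Met*), 0.26 to 0.43 (*Atp6v0a1*), 0.18 to 0.39 (*Bicra*), 0.38 to 0.54 (*Arfgap3*) and 0.0513 to 0.34 (*Gtpbp3*). Counts ran from 12 to 21 higher and 1 to 2 lower clathrin genes, 3 to 6 higher partners, 2 to 4 higher flotillin and raft genes, 1 to 2 lower mural markers, 0 to 1 higher fibroblast marker, 0 to 1 lower striated muscle marker and 0 to 1 lower blood marker. The cause of these shifts was not tested.

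The replicate numbers were checked by how far each library's log2 values lay from its group mean, gene by gene. These deviations correlated at 0.08, -0.33 and -0.30 between same-numbered libraries and at -0.225 to 0.3897 between differently numbered ones. With 3 libraries per group such values cannot tell whether the numbers pair the libraries. With the number as a replicate block the same 6 members passed, *Cav1* with adjusted p = 0.0006419 and *Cavin1* with 0.01045 in limma, and *Abl1* and *Scarb1* lost their calls. VEC-null replicate 1, with 6036155 reads, is the shallowest library, and depth limits genes of few reads such as *Mfsd2a*, not the members.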
